A study of Homo sapiens with 4 samples.

Results

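Aminoacyl-tRNA synthetases join each amino acid to its transfer RNA, the step that sets which amino acid a codon receives. The 34 genes considered here encode 19 cytosolic enzymes, 13 mitochondrial enzymes whose symbols end in 2, and the scaffold proteins AIMP1 and AIMP2 of the cytosolic multi-synthetase complex. Members were the probe sets annotated to exactly 1 of these symbols: 39 of the 19064 single-gene probe sets on the array, for 27 of the 34 genes (16 cytosolic, 10 mitochondrial and AIMP1). The annotation joins the 5 probe sets of MARS1, QARS1 and TARS2 to a microRNA gene as well, so the expression of these 3 genes was left out, and that of FARSB, PARS2, EARS2 and AIMP2 was not analysed here; their promoters were searched.

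Total RNA of BJ-TE, an immortalised derivative of the human foreskin fibroblast strain BJ, was hybridised to 4 Affymetrix arrays, 1 for each combination of hairpin and density. The groups were p73 shRNA at 100% confluence, ns shRNA at 100% confluence, p73 shRNA at 40% confluence and ns shRNA at 40% confluence, where the labels call ns a control. Every culture carried a hairpin, and neither cells without one nor other p73 hairpins were among these arrays. No group had a replicate, and the labels name no separate cultures, so every p-value below reflects the scatter among these 4 arrays alone. With 1 array per group, the only scatter the additive model below can measure is the disagreement between the hairpins in their response to confluence. That is not scatter between replicates.

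Of the markers of the cell of origin, 12 of 12 fibroblast genes lay above the brightness filter described below, against 1 of 8 epithelial (KRT18), 0 of 5 endothelial, 0 of 3 measured blood and 2 of 4 smooth muscle markers. Summed intensity of the fibroblast markers was 93210 (p73 shRNA) and 88440 (ns shRNA) at 100% confluence, against 85300 and 75730 at 40%, and its part in the results was not tested. The 1 probe set of TP73, the gene the hairpin targets, was near the bottom of the scale on every array, at 2.0 and 1.7 (p73 and ns shRNA) at 100% confluence and 2.1 and 1.7 at 40%, so it gives no check of the knockdown. Median intensity was 120 (p73 shRNA) and 122 (ns shRNA) at 100% confluence and 105 and 106 at 40%. The 99th percentile of intensity went the other way, at 10869 and 10196 at 100% confluence, against 13157 and 11420 at 40%. The top end of the scale thus moved with confluence, and its part in the results below was not tested. For the beta-actin control the signal near the 3′ end over that near the 5′ end, a measure of RNA integrity, was 1.39 and 1.47 at 100% confluence, against 1.09 and 1.24 at 40%. It therefore moved with confluence, and its part in the results below was not tested. Intensities are relative to each array's average, so less of a transcript per cell and more of other RNA cannot be told apart.

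Cells keep separate sets of synthetases for the cytosol and for mitochondria, both encoded in the nucleus. For most amino acids the sets come from different genes, whereas GARS1 and KARS1 each supply both compartments. Many cytosolic synthetase genes are targets of ATF4, the transcription factor of the amino acid response, which binds with C/EBP proteins at a composite element. In growing cells synthetases serve protein synthesis, and several also have other roles, such as WARS1, which is induced by interferon gamma.

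The letters of that composite element, TGATGNAAN, were looked for on both strands of RefSeq promoters, 250 bases before to 50 after each annotated start (GRCh38.p14). Promoter entries existed for 31 of the 34 genes, not for YARS1, LARS1 and VARS1. Of the 16 cytosolic enzymes with an entry, 7 held the letters (43.8%), and of the 13 mitochondrial enzymes 1 did (7.7%). The share was 4.5% of all 27303 genes in the table and 2.6% of the 5716 of them above the brightness filter. Each match is shown on the strand of its gene with 10 bases on either side, the matching letters or their reverse complement in capitals, because these are the members that share the element.
AARS1: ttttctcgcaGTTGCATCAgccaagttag
CARS1: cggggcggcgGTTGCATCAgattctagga
GARS1: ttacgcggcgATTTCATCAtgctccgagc
IARS1: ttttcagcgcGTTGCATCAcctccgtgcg
MARS1: gccggttccgGTTGCATCAgcgagggatt
NARS1: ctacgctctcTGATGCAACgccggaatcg
TARS1: gcgcctttcgATTGCATCAgctggtccag
YARS2: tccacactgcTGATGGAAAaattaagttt
The windows lie at chr16:70289676-70289704 (AARS1, minus strand), chr11:3057408-3057436 (CARS1, minus), chr7:30594834-30594862 (GARS1, plus) and chr9:92293693-92293721 (IARS1, minus). The others are at chr12:57488053-57488081 (MARS1, plus), chr18:57621804-57621832 (NARS1, minus), chr5:33440956-33440984 (TARS1, plus) and chr12:32756076-32756104 (YARS2, minus). In AARS1 and YARS2 the match began 188 and 197 bases before the start, and in the other 6 it lay within 34 bases of it. The E-box CACGTG was present in 1 of 16 cytosolic and 2 of 13 mitochondrial promoters, CARS2 and EARS2, beside 8.8% of all genes and 13.5% of those above the filter. The palindromic core of the NRF1 site was in none of either set, against 1.5% of all genes and 3.0% of those above the filter. A match is a description of letters and not evidence of binding.

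The first comparison, 100% against 40% confluence, asks how synthetase transcripts follow the density at which cells were collected. Part of the cytosolic set fell at confluence: 7 of the 16 above the brightness filter were lower, led by YARS1, FARSA, GARS1 and HARS1, and none was higher. Over all 6759 genes tested 16.1% were lower and 20.4% higher, 36.6% in either direction. Of the 9 mitochondrial enzymes above the filter, CARS2 fell, YARS2 rose and 7 did not pass. The test was an additive limma model of confluence and hairpin on log2(intensity + 11.6), two-sided, with Benjamini-Hochberg adjustment over the 6759 genes and a threshold of 0.05. Genes were kept from a mean log2 value of 6.94, the median of all probe sets, which corresponds to an intensity of about 111. Of the 27 members with a probe set, 26 passed this filter, and RARS2, the mitochondrial arginyl-tRNA synthetase, did not: its 2 probe sets had intensities of 2.04 to 27.7. Each gene is given by its brightest probe set, and all fold changes are on this log2(intensity + 11.6) scale. The cytosolic enzymes were brighter than all genes tested, with a median log2 value of 11.04 against 9.3. Their median SE was 0.15 against 0.18, so a change of a given size passed more easily among them. With the brightness filter at the 70th percentile, 7 of 16 cytosolic enzymes were lower, beside 20% of all 4369 genes then tested.

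**Figure D1:**
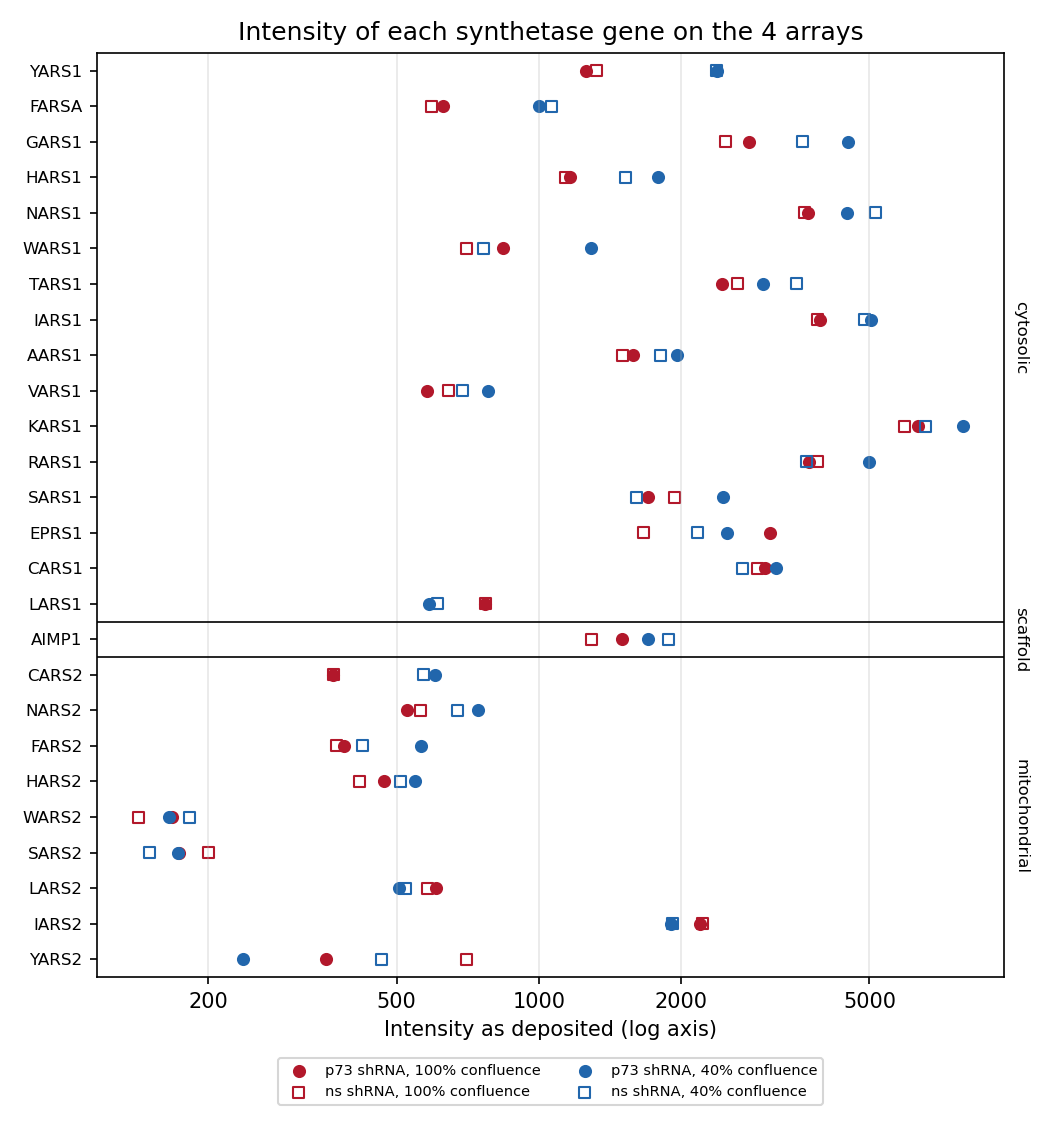
Intensity as deposited of each of the 26 synthetase genes above the brightness filter on the 4 arrays, on a log axis; filled circles are p73 shRNA, open squares ns shRNA, red 100% and blue 40% confluence. For YARS1 both red symbols lie left of both blue ones, while the YARS2 symbols separate by hairpin within each colour.

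YARS1, the cytosolic tyrosyl-tRNA synthetase, had the largest fall of the members. Its intensity was 1259 (p73 shRNA) and 1325 (ns shRNA) at 100% confluence, against 2383 and 2373 at 40%. Both confluent cultures were well below both sparse cultures, and the hairpins hardly differed. The average log2 change was -0.87 (SE 0.151, limma adjusted p 1.20e-07), at the 3.3rd percentile of all genes tested.

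FARSA, the catalytic subunit of cytosolic phenylalanyl-tRNA synthetase, had 627 and 593 at 100% confluence (p73 and ns shRNA), against 1002 and 1064 at 40%. The groups did not overlap, and the average change was -0.75 (SE 0.170, limma adjusted p 9.51e-05). Another FARSA probe set was lower by -0.54 with p73 shRNA and -0.73 with ns shRNA.

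GARS1, the glycyl-tRNA synthetase of both compartments, had 2781 and 2476 at 100% confluence, against 4496 and 3613 at 40%. It changed by -0.62 (SE 0.142, limma adjusted p 0.000121). HARS1, the cytosolic histidyl-tRNA synthetase, had 1163 and 1140 at 100% confluence, against 1782 and 1522 at 40%. Neither gene had overlapping groups, and for HARS1 the change was -0.51 (SE 0.155, limma adjusted p 0.00469).

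The other 3 cytosolic enzymes that fell changed less. NARS1, which charges asparagine, had 3710 (p73 shRNA) and 3646 (ns shRNA) at 100% confluence, against 4478 and 5146 at 40% (-0.38, limma adjusted p 0.021). TARS1, which charges threonine, had 2440 and 2636, against 2981 and 3511 (-0.35, limma adjusted p 0.0424). IARS1, which charges isoleucine and belongs to the multi-synthetase complex, had 3940 and 3879, against 5039 and 4873 (-0.34, limma adjusted p 0.0414). In all 3 the confluent arrays lay below the sparse ones, but the calls depended on the processing. They were lost after quantile normalization of the arrays, without the intensity trend in limma, without the brightness filter and with hairpin left out of the model, where the limma adjusted p was 0.0556 to 0.148. YARS1, FARSA, GARS1 and HARS1 passed under all 9 alternatives of scaling, pseudocount, filter, probe set rule and model.

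Among the 9 cytosolic enzymes that did not pass, WARS1, the tryptophanyl-tRNA synthetase, had 840 and 704 at 100% confluence, against 1290 and 762 at 40%. The groups overlapped, since the confluent p73 shRNA array lay above the sparse ns shRNA array (-0.36, SE 0.167, limma adjusted p 0.0751). Its other probe set did pass when every probe set was fitted (-0.61, limma adjusted p 0.00294). For KARS1, the lysyl-tRNA synthetase of both compartments, the brightest probe set changed by -0.23 (limma adjusted p 0.181) and the other by -0.42 (limma adjusted p 0.0125). AARS1, which charges alanine, and VARS1, which charges valine, had changes of -0.29 and -0.26 (limma adjusted p 0.125 and 0.251). A dimmer VARS1 probe set below the filter had 35.5 and 21.1 at 100% confluence, against 131 and 78.4 at 40%, and with the mean of both probe sets VARS1 passed (-0.89, limma adjusted p 0.00445). LARS1, the leucyl enzyme of the complex, was the only cytosolic member with both confluent arrays above both sparse ones, at 768 and 773, against 586 and 611 (0.36, limma adjusted p 0.0955).

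In 4 of 16 cytosolic enzymes the direction differed between the hairpins, a share near that of all genes (23.8%). The seryl enzyme SARS1 had 1701 (p73 shRNA) and 1935 (ns shRNA) at 100% confluence, against 2453 and 1611 at 40%. EPRS1, which charges glutamate and proline with 1 protein, had 3077 and 1667, against 2505 and 2168, but its other 2 probe sets had the opposite order (-0.20 and 0.08) or little change (0.12 and -0.06). CARS1, which charges cysteine, had 3013 and 2905, against 3176 and 2693. Its other probe set did not share this pattern, being higher at confluence with both hairpins (0.21 with p73 shRNA and 0.10 with ns shRNA). RARS1, which charges arginine, had a ratio of -0.42 with p73 shRNA and 0.08 with ns shRNA. With 1 array per group these differences between hairpins have no test.

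Counted over the 16 cytosolic enzymes, both confluent arrays lay below both sparse arrays in 10 and above them in 1, beside 30.7% and 33.7% of all genes. The median change was -0.31, with medians of -0.39 with p73 shRNA and -0.30 with ns shRNA, and the median of all genes was 0.01. The scaffold protein AIMP1 had 1501 and 1294 at 100% confluence, against 1703 and 1878 at 40% (-0.36, limma adjusted p 0.0523), and its other probe set passed (-0.43, limma adjusted p 0.0382). Grouped by role, a split made after the values were seen, 1 of the 5 enzymes of the multi-synthetase complex fell (IARS1; median -0.17) and 6 of the 11 others did (median -0.36). Over all genes 16.1% fell. After quantile normalization the corresponding numbers were 0 and 4, beside 16.2% of all genes. The split uses the brightest probe sets, and the other probe sets of KARS1, in the complex, and WARS1, outside it, did pass as lower.

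**Figure D2:**
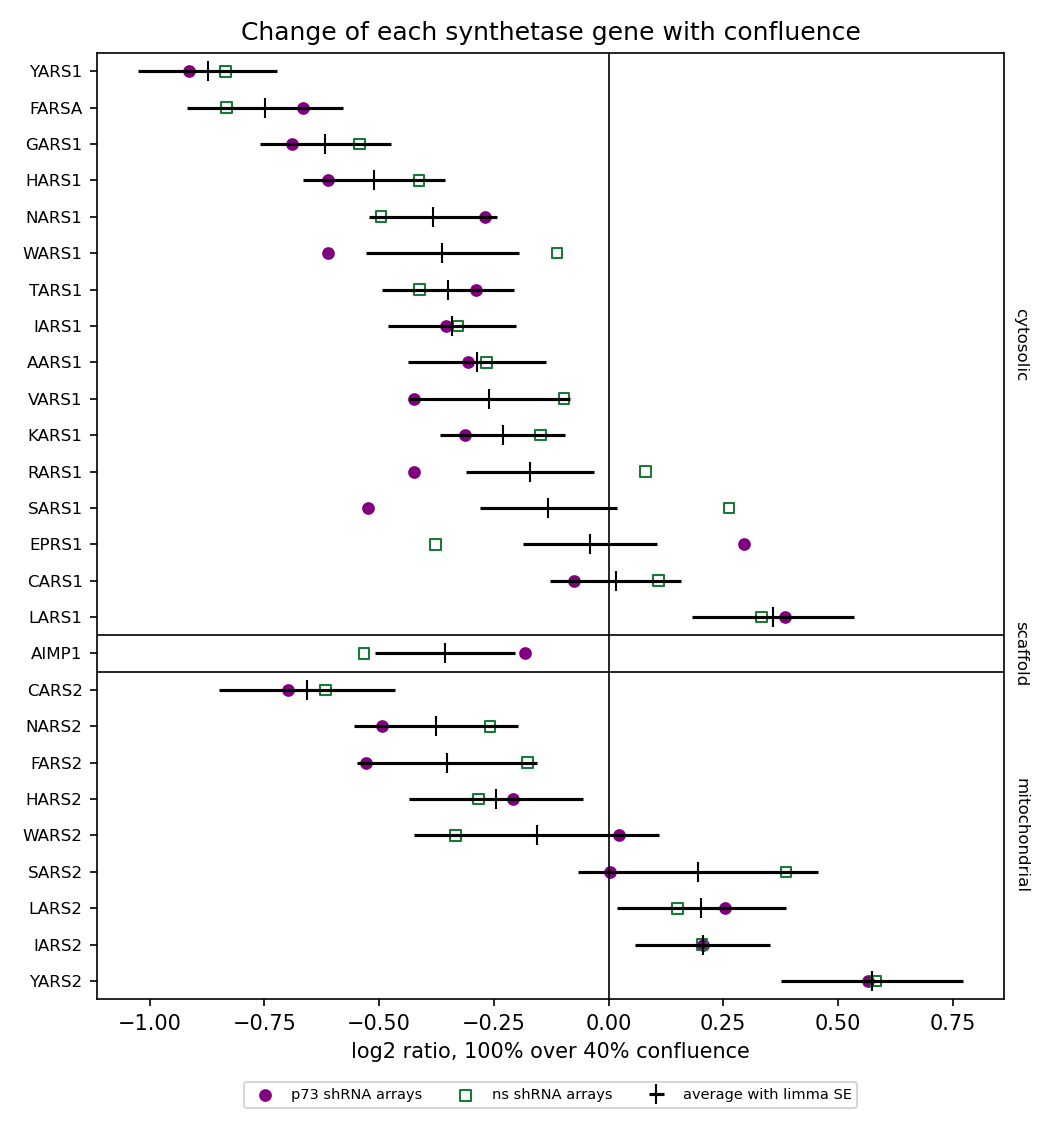
Log2 ratio of 100% over 40% confluence for each synthetase gene, with filled circles for the p73 shRNA arrays, open squares for the ns shRNA arrays and a black tick and bar for the limma average with its SE. The averages of the cytosolic enzymes run from -0.87 (YARS1) to 0.36 (LARS1) and those of the mitochondrial enzymes from -0.66 (CARS2) to 0.57 (YARS2).

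Mitochondrial synthetases had no common direction. CARS2, the mitochondrial cysteinyl-tRNA synthetase, had 367 (p73 shRNA) and 368 (ns shRNA) at 100% confluence, against 602 and 571 at 40%. It fell by an average of 0.66 on the log2 scale (SE 0.192, limma adjusted p 0.00314) and passed under all 9 alternatives.

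YARS2, the mitochondrial tyrosyl-tRNA synthetase, had 355 and 702 at 100% confluence, against 236 and 465 at 40%. Within each hairpin the confluent array was higher, but the stages overlapped because the hairpins differed more than the stages did. The average change was 0.57 (SE 0.199, limma adjusted p 0.0144), and the call was lost without the brightness filter (limma adjusted p 0.0644) and with hairpin left out of the model (limma adjusted p 0.289).

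The other 7 mitochondrial enzymes did not pass. NARS2 had 526 and 562 at 100% confluence, against 745 and 674 at 40% (-0.38, limma adjusted p 0.0853). FARS2 had 388 and 373, against 564 and 423, and HARS2 had 471 and 417, against 546 and 510. In these 3 enzymes, which charge asparagine, phenylalanine and histidine, both confluent arrays were below both sparse ones on the brightest probe set. Another FARS2 probe set above the filter had ratios of 0.31 with p73 shRNA and -0.34 with ns shRNA (average -0.02). IARS2, for isoleucine, had 2195 and 2213, against 1900 and 1920. LARS2, for leucine, had 606 and 581, against 507 and 522, while its other probe set was lower at confluence by -0.16 and -0.17, so the LARS2 probe sets went opposite ways. SARS2 had 173 and 200, against 173 and 150, and WARS2 had 168 and 142, against 165 and 182; both lay close to the filter, where the SE was largest (0.262 and 0.267).

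The median change of the mitochondrial enzymes was -0.16, with 4 of 9 lower and 4 of 9 higher on both pairs of arrays (36.9% and 39.2% of all genes). The difference of the medians, cytosolic minus mitochondrial, was -0.16 on average, -0.39 on the p73 shRNA arrays and -0.12 on the ns shRNA arrays. After quantile normalization it was 0.001, because the mitochondrial median became -0.30 and the cytosolic one stayed at -0.30. The errors also differed: the median SE was 0.15 for cytosolic and 0.19 for mitochondrial enzymes, so a change of a given size passed less easily among the mitochondrial ones. The 2 sets are thus described side by side, and no test separates them.

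For 9 amino acids both enzymes were above the filter, and these pairs varied widely. The cytosolic change was below the mitochondrial one in 7 pairs and above it in cysteine and leucine. The widest gap was that of tyrosine, where YARS1 fell and YARS2 rose, a difference of -1.45 between the log2 changes. Isoleucine followed with -0.55, and asparagine had almost none (-0.01). The opposite order was widest for cysteine, at 0.67: CARS2 fell and CARS1 changed by 0.02. After quantile normalization the cytosolic change was the lower in 6 of the 9 pairs.

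**Figure D3:**
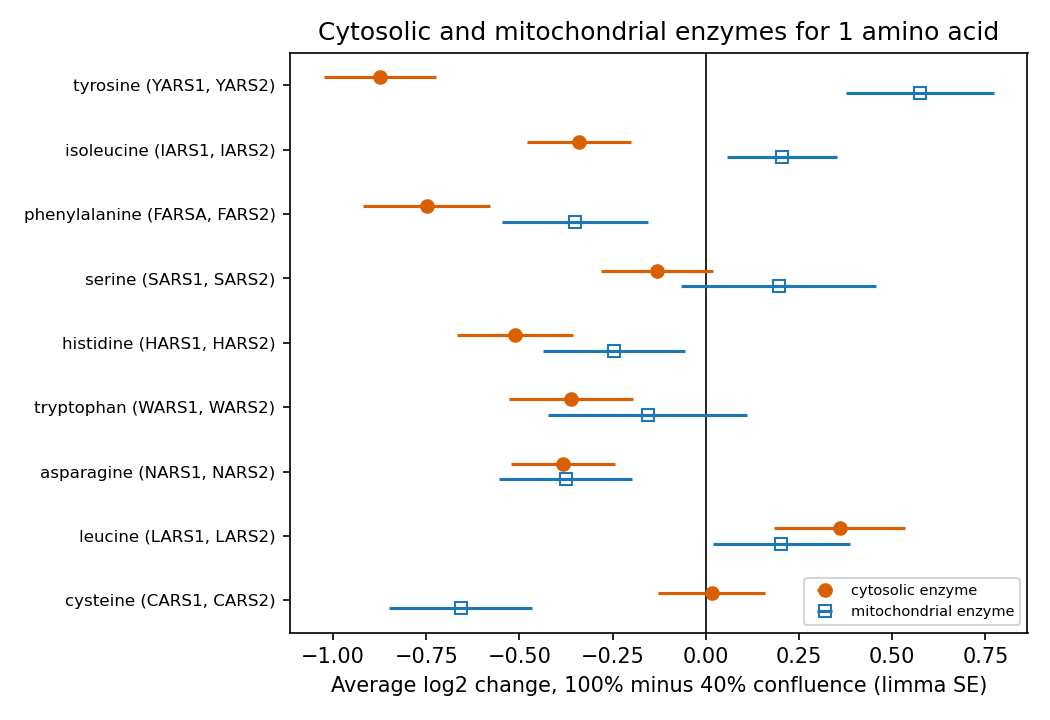
Average log2 change, 100% minus 40% confluence, of the cytosolic (filled circle) and mitochondrial (open square) enzyme of each amino acid that has both above the filter, with limma SE bars. The tyrosine pair lies farthest apart, at -0.87 for YARS1 and 0.57 for YARS2, and the asparagine pair coincides.

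The promoter letters shown above were set beside the changes with confluence in a split that was not planned and carries no test. Of the 6 measured cytosolic enzymes that hold TGATGNAAN, 4 fell (GARS1, NARS1, TARS1 and IARS1), and AARS1 and CARS1 did not pass. Of the 7 with a promoter entry but without the letters, FARSA and HARS1 fell. Over all genes 16.1% fell. The median changes of the enzymes with and without the letters were -0.35 and -0.23. After quantile normalization 1 of the 6 and 2 of the 7 fell, and the only mitochondrial holder, YARS2, rose.

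Other genes of tRNA charging and use were read from lists chosen by function. Over all genes 16.1% fell at confluence and 20.4% rose, the shares to set beside each list's count at confluence. In the amino acid response, 11 of 23 genes above the filter fell at confluence and 2 rose, with a median of -0.46. SLC7A11, the cystine transporter, had 492 (p73 shRNA) and 617 (ns shRNA) at 100% confluence, against 1530 and 2324 at 40% (-1.75, limma adjusted p 8.33e-25). PSAT1, an enzyme of serine synthesis, and SLC3A2, the heavy chain shared by several amino acid transporters, both changed by -1.50. ATF4 itself fell with an average of -0.46 (limma adjusted p 0.0049), which did not pass with no trend in the moderation (limma adjusted p 0.0594). CTH, which makes cysteine from cystathionine, and the transcription factor CEBPB rose, by 0.97 and 0.57.

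The list of tRNA synthesis, maturation and export held 28 genes, 21 of them above the filter. Of these 12 were lower and 0 higher, with a median of -0.51. The RNase P subunit RPP40, which takes part in trimming the 5′ end of tRNA precursors, had 357 and 386 at 100% confluence, against 1040 and 866 at 40% (-1.33, limma adjusted p 9.19e-12). POP1, another RNase P subunit, and POLR3K, a subunit of the polymerase that makes tRNA, changed by -1.32 and -1.11.

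Of the 5 elongation factor genes listed for delivery to the cytosolic ribosome, 3 were above the filter: EEF1A1, which delivers charged tRNA, EEF1D and EEF2. Of these EEF1A1 fell (-0.52, limma adjusted p 0.000632), and quantile normalization ended that call (limma adjusted p 0.859). Of the 6 genes listed for delivery to the mitochondrial ribosome, TUFM, TSFM and MTIF2 were above the filter. Of these 3 TUFM, the mitochondrial elongation factor Tu, fell (-0.48, limma adjusted p 0.00307). Of the 11 interferon-gamma genes listed 7 were above the filter. Among these 7 genes 3 rose at confluence and none fell, beside 20.4% and 16.1% of all genes. The 3 were the guanylate-binding protein GBP2 (1.41), the immunoproteasome subunit PSMB9 (0.82) and HLA-E (0.72). Only 3 of the 15 other aminoacylation genes listed were above the filter. Among these QRSL1, a subunit of the mitochondrial amidotransferase that makes glutaminyl-tRNA, fell (-0.54, limma adjusted p 0.0217).

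**Figure D4:**
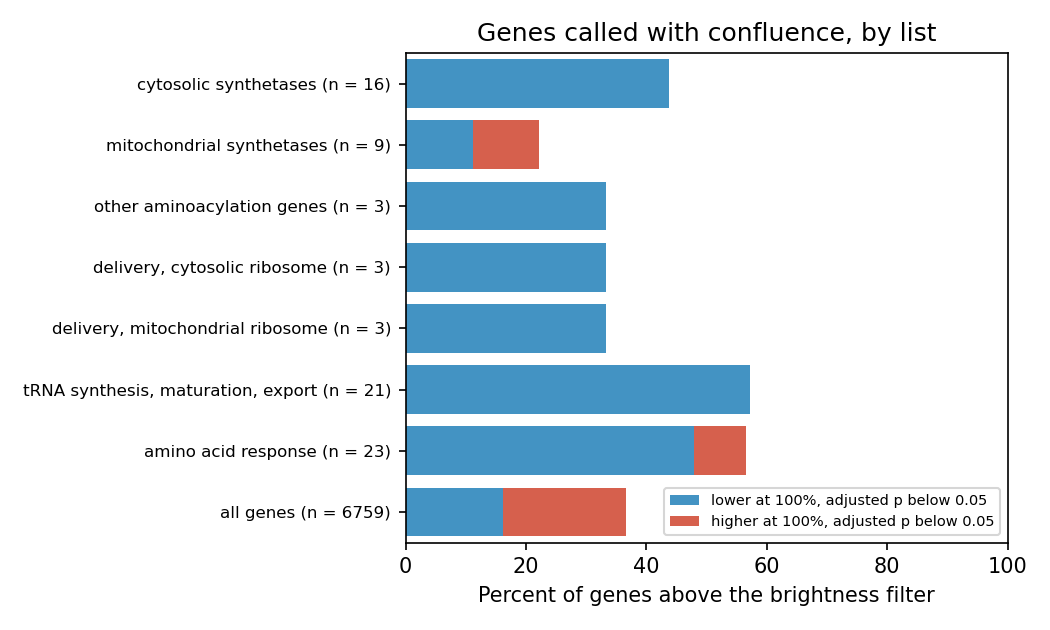
Percent of the genes above the brightness filter in each list that were lower (blue) or higher (red) at 100% than at 40% confluence (limma adjusted p below 0.05), with all 6759 genes at the bottom. The cytosolic synthetases show 7 of 16 lower and none higher, and the mitochondrial set 1 lower and 1 higher of 9.

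The other comparison, p73 shRNA against ns shRNA, asks whether the synthetases differ when p73 is targeted. Nearly all of them passed no test: 1 of 16 cytosolic enzymes rose (EPRS1), 1 of 9 mitochondrial enzymes fell (YARS2), and the other 24 members did not pass. Over all genes 1.14% rose and 1.58% fell, 2.72% in either direction. On the brightest probe sets the cytosolic enzymes were higher with p73 shRNA at both densities in 8 of 16 and lower at both in 2. The shares of all genes were 29.0% and 29.3%, and the mitochondrial numbers were 2 and 2 of 9. CARS1 was among the 8, but its other probe set was lower at both densities (-0.34 at 100% and -0.46 at 40% confluence).

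YARS2 was about halved at both densities. It had an intensity of 355 with p73 shRNA and 702 with ns shRNA at 100% confluence, and 236 and 465 at 40%. The log2 ratios were -0.96 and -0.94, and the average was -0.95 (SE 0.199, limma adjusted p 0.000352), rank 26 from the lowest of 6759 genes. The call was lost without the brightness filter (limma adjusted p 0.22) and with confluence left out of the model (limma adjusted p 1), and YARS2 has 1 probe set on the array. Its cytosolic partner YARS1 averaged -0.03.

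EPRS1 was higher on its brightest probe set, with 3077 (p73 shRNA) and 1667 (ns shRNA) at 100% confluence, and 2505 and 2168 at 40%. The average was 0.54 (SE 0.146, limma adjusted p 0.012), but its 3 probe sets disagreed. Another had 1852 and 1866 at 100% confluence and 1707 and 1948 at 40%, with ratios of -0.01 and -0.19. The dimmest had ratios of 0.22 and 0.495. With the mean of all probe sets the EPRS1 change was 0.27 (limma adjusted p 0.417), and moderation with no trend gave a limma adjusted p of 0.248.

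WARS1 stood next to EPRS1 among the higher members, at the 97.9th percentile of all genes, and did not pass. Its intensities were 840 with p73 shRNA and 704 with ns shRNA at 100% confluence, and 1290 and 762 at 40% (average 0.50, SE 0.167, limma adjusted p 0.0761). Its other probe set had 647 and 454 at 100% confluence and 909 and 764 at 40%, higher with p73 shRNA at both stages too. In the list of interferon-gamma genes, 1 of the 7 above the filter rose with p73 shRNA, beside 1.14% of all genes. It was the immunoproteasome subunit PSMB9 (0.54, limma adjusted p 0.0454). The PSMB9 call was lost after quantile normalization (limma adjusted p 0.0875) and without the intensity trend (limma adjusted p 0.202). Any link of this gene to the WARS1 values was not tested. The mitochondrial partner WARS2 averaged 0.04.

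On their brightest probe sets the remaining cytosolic enzymes lay between -0.17 (TARS1) and 0.24 (GARS1). For CARS1 the sign depended on the probe set, at 0.145 on the brightest and -0.40 on the other (limma adjusted p 0.291). The cytosolic median was 0.03 at 100% confluence and 0.19 at 40%, and the mitochondrial one was -0.01 and 0.07. The p73 shRNA array at 40% was also the one with the brightest top end, with a 99th percentile of intensity of 13157 against 10196 to 11420 on the other arrays, and the part of this in the values at 40% was not tested. Summed intensity of the 4 smooth muscle markers was 993 and 760 on the p73 shRNA arrays at 100% and 40% confluence, against 1323 and 1179 on the ns shRNA arrays; its part in the results was not tested.

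None of the 23 amino acid response genes passed with p73 shRNA in limma (median -0.03; 922 of all 6759 genes had an unadjusted p below 0.05). In tRNA synthesis and maturation 1 of 21 fell, beside 1.58% of all genes. It was the RNA polymerase III subunit POLR3F (-0.22 at 100% and -1.39 at 40% confluence, limma adjusted p 0.044). The POLR3F call was lost after quantile normalization (limma adjusted p 0.141) and without the intensity trend (limma adjusted p 0.112). No gene of the delivery lists or of the other aminoacylation genes passed.

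**Figure D5:**
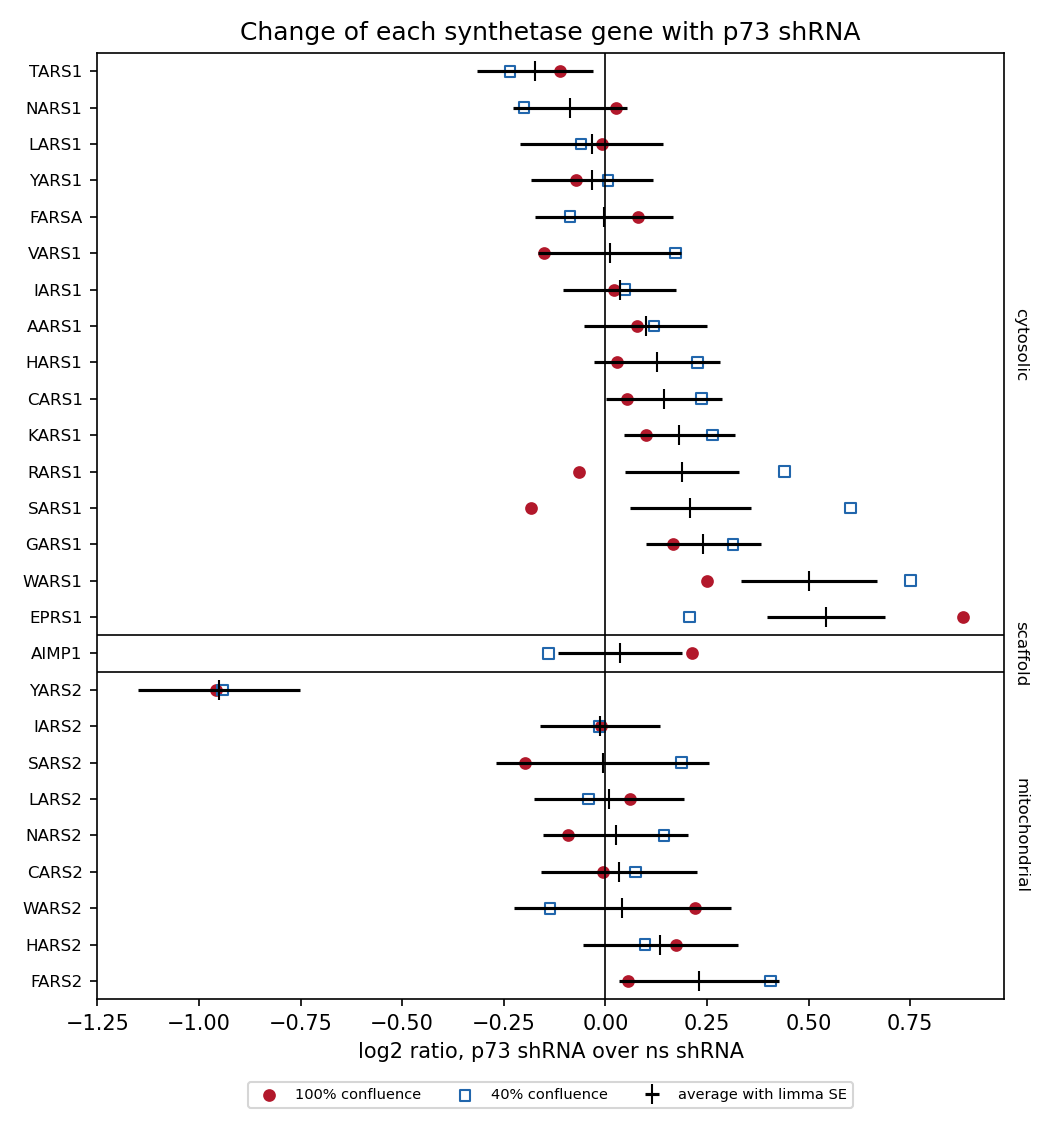
Log2 ratio of p73 shRNA over ns shRNA for each synthetase gene, with filled circles for 100% and open squares for 40% confluence and a black tick and bar for the limma average with its SE. YARS2 stands alone on the left, at -0.96 and -0.94, and EPRS1 has the highest average, at 0.54.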

How the data were processed

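The authors deposited 1 linear intensity per probe set and array. RNA was biotin-labelled by the standard Affymetrix protocol, per the labels; which software summarised and scaled them was not found in the labels. The 4 arrays have a mean of 500 after trimming 2% at either end, so they were used as deposited. The number of arrays limits the precision. Probe sets with 1 gene symbol in the platform annotation (19064 of 22277) were named by Entrez ID. Values were taken as log2(intensity + 11.6), the pseudocount being the 20th percentile of all values. Confluence and hairpin were fitted together with limma 3.58.1 in R 4.3.3, with an intensity trend. The model has 1 residual degree of freedom and gave infinite prior degrees of freedom, so each error rests on the typical scatter of genes equally bright. A gene whose own arrays disagree between the hairpins therefore gets no larger error. Members and lists were chosen with earlier results of these data known. Per-array values are given for members that passed and for amino acids with both enzymes measured; up to 3 called genes with the largest change are named from each list. ATF4, CTH, CEBPB and the arrays of AIMP1 were added after their values were seen. Lists carry no test of their own. The model was run on simulated data with additive effects and independent noise drawn from its own fitted errors. Such data cannot show faults of scaling or responses that differ between the hairpins. Figures were drawn with matplotlib 3.10.9.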

Additional observations from a re-analysis of the deposited data

Results flagged for a closer look

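In 2 members both hairpins moved by at least 0.2 on the log2 scale with confluence, in opposite directions; the difference was not tested. EPRS1 had a ratio of 0.30 with p73 shRNA and -0.38 with ns shRNA, a difference of 0.67. This rests on the brightest of its 3 probe sets: another had -0.20 and 0.08, and the remaining one 0.12 and -0.06. SARS1 had -0.52 and 0.26, a difference of -0.79.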

How the results depend on the processing

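Cytosolic synthetases lower at confluence numbered 7 of 16 in the main fit, where 16.1% of all genes were lower. The number was 4 after quantile normalization (16.2% of all genes lower), 4 without the brightness filter (5.37%) and 4 without the intensity trend (12.3%). It was 4 with hairpin left out of the model (8.55%), 8 with arrays centred on the median (19.4%) and 9 with probe sets averaged per gene (15.2%). Mitochondrial enzymes called at confluence numbered 1 without the filter and 1 with hairpin left out, and 3 with centring, against 2; their median was -0.302 after quantile normalization and 0.004 without the filter. Over all genes, 1555 were called with confluence without the filter and 1345 with hairpin left out, against 2471. With p73 shRNA the called genes numbered 105 after quantile normalization, 4 without the filter, 40 with the mean of probe sets, 74 without the trend and, in limma, 0 with confluence left out (58 at an unadjusted p below 0.05), against 184. The EPRS1 call, the only cytosolic one with p73 shRNA, became 0 without the filter, with the mean of probe sets, without the trend and with confluence left out. The YARS2 call became 0 without the filter and with confluence left out. When every probe set was fitted, 12 of 35 were lower and 1 higher at confluence. The share of all probe sets called in that fit was not taken, so this count has no background beside it. It also counts 8 members by several probe sets each. Of 464 values of single members under the alternatives, 20 lost a call, 7 gained one and none that was called changed sign. Centring the arrays on the median turned the split of higher and lower genes at confluence to 1189 and 1308, against 1382 and 1089. No paired analysis was possible because each group has 1 array, so replicate numbers pair nothing; the additive model itself compares the densities within each hairpin and the hairpins within each density. Signal over background limits what is seen: for RARS2, dim on every array, no change can be read.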
